A study of Mus musculus with 28 samples.

Results

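Spop, its paralog Spopl and 5 further components of cullin-3 ubiquitin ligases were followed in the frontal cortex of aged mice that carry the Q331K mutation in TDP-43. The 7 genes (Spop, Spopl, Cul3, Rbx1, Keap1, Klhl12 and Klhl20) were found by symbol among the 25900 gene identifiers of the deposited count table, and all 7 passed the filter on low counts, among 16110 genes tested. Spop was selected on its read counts in these same libraries, which an earlier look had shown lower in homozygotes than in wild type and in heterozygotes. Its values in all comparisons are therefore given as a description, without a test, since the differences of HET from WT and from the midpoint follow from those 2. The intervals printed for Spop take no account of this choice and do not stand for a test. The other 6 genes were listed for their place in the same ligase family, with results of these data known.

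Polyadenylated RNA was sequenced in 28 libraries of C57BL/6 mice aged 20 months: 10 homozygous for the TDP-43 Q331K knock-in (HOM), 10 heterozygous for it (HET) and 8 wild type for TDP-43 (WT). The knock-in and the background strain are all that the labels give of the model. They name no sex, litter or sequencing batch and do not state whether the libraries of a group are separate animals, so a p-value here covers the variation among libraries, which may be partly technical. Total counts per library ran from 30.5 to 62.6 M reads in HOM, 45 to 74.9 M reads in HET and 46.5 to 64.1 M reads in WT.

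A cullin-3 ligase is assembled on the scaffold CUL3, which holds the RING protein RBX1 at one end and a BTB-domain adaptor at the other. RBX1 recruits the ubiquitin-charged E2 enzyme, and the adaptor binds both CUL3 and the substrate. SPOP and SPOPL are adaptors that take their substrates through a MATH domain, whereas KEAP1, KLHL12 and KLHL20 use Kelch repeats. TDP-43 is a nuclear RNA-binding protein that prefers UG-rich RNA and acts in splicing and in RNA stability.

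Because of that preference, the mature transcripts of the 7 genes were searched for alternating TG runs, the DNA spelling of UG repeats. Spop stood apart from the other 6 members. Its transcript Spop-201 held runs of 24, 21 and 17 bases in the 5′ UTR, whereas the longest run was 10 bases in Klhl12, 7 bases in Spopl, Cul3, Rbx1 and Klhl20, and 6 bases in Keap1. The 3 Spop runs and, for contrast, the longest run of Klhl12 and a run of Spopl are shown with the run in capitals, from GENCODE vM21 transcripts on GRCm38.
Spop, first exon, chr11:95414146-95414172, plus strand: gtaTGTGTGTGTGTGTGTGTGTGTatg
Spop, first exon, chr11:95414169-95414196, plus strand: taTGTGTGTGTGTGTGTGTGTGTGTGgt
Spop, first exon, chr11:95414205-95414231, plus strand: gtgtgGTGTGTGTGTGTGTGTGgtgtg
Klhl12, coding sequence, chr1:134489424-134489451, plus strand: gtgatgctgGTGTGTGTGTtctccgaga
Spopl, 3′ UTR, chr2:23507869-23507895, minus strand: tggttcttgaGTGTGTGataaaagact

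Hexamers TGTGTG and GTGTGT were also counted on the transcript strand, with overlapping starts counted separately. Spop-201, 3063 bases long, held 96 such starts, or 31.3 per kb, which ranked 15 of 14879 genes with a coding transcript; 0.101% of them were as dense, and 3.81% had a run as long as 24 bases. The other 6 members had 0.277 to 2.64 starts per kb. Of the 96 starts in Spop-201, 87 lay in 200 bases of the first exon, at chr11:95414132-95414331, with 4 in the coding sequence and 5 in the 3′ UTR. The annotation splices this stretch out of a second coding transcript, Spop-202, whose first exon ends at 95414131 and whose second begins at 95414332. Spop-202 kept 9 hexamer starts (3.12 per kb), and its longest run was 9 bases. Counts per gene do not separate these transcripts, introns were not searched, and a match is a feature of the sequence and not a measured binding site.

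**Figure D1:**
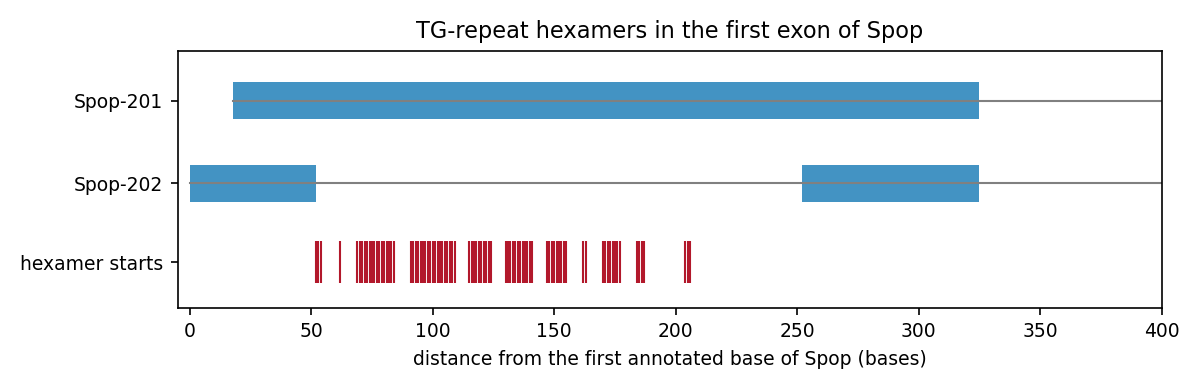
TG hexamer starts along the first exon of Spop-201 (horizontal axis, bases from the first annotated base of the gene), with the exons of Spop-201 and Spop-202 on the same scale. The dense stretch, with 87 of the 96 hexamer starts of Spop-201, falls in the 200 bases that Spop-202 splices out.

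Spop lies on chromosome 11 (95414080 to 95493406, plus strand, GRCm38). Levels are given as CPM, read counts scaled to a common library size after TMM normalisation. Across the 10 HOM libraries Spop had a lowest value of 164, a median of 173 and a highest of 179 CPM. The 10 HET libraries had 183, 187 and 194 CPM, and the 8 WT libraries 194, 202 and 208 CPM. All 10 HOM libraries lay below every HET and every WT library. Of the 10 HET libraries, 9 lay below the lowest WT library, all 10 lay below the WT mean, and HET 5, the highest of them, met the lowest WT library at 194 CPM. Of the genes tested, 0.223% had all HOM libraries below all WT libraries and 0.0124% had all HOM libraries below all HET libraries, a pattern for which Spop was chosen; 0.031% had all HET libraries below all WT libraries.

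**Figure D2:**
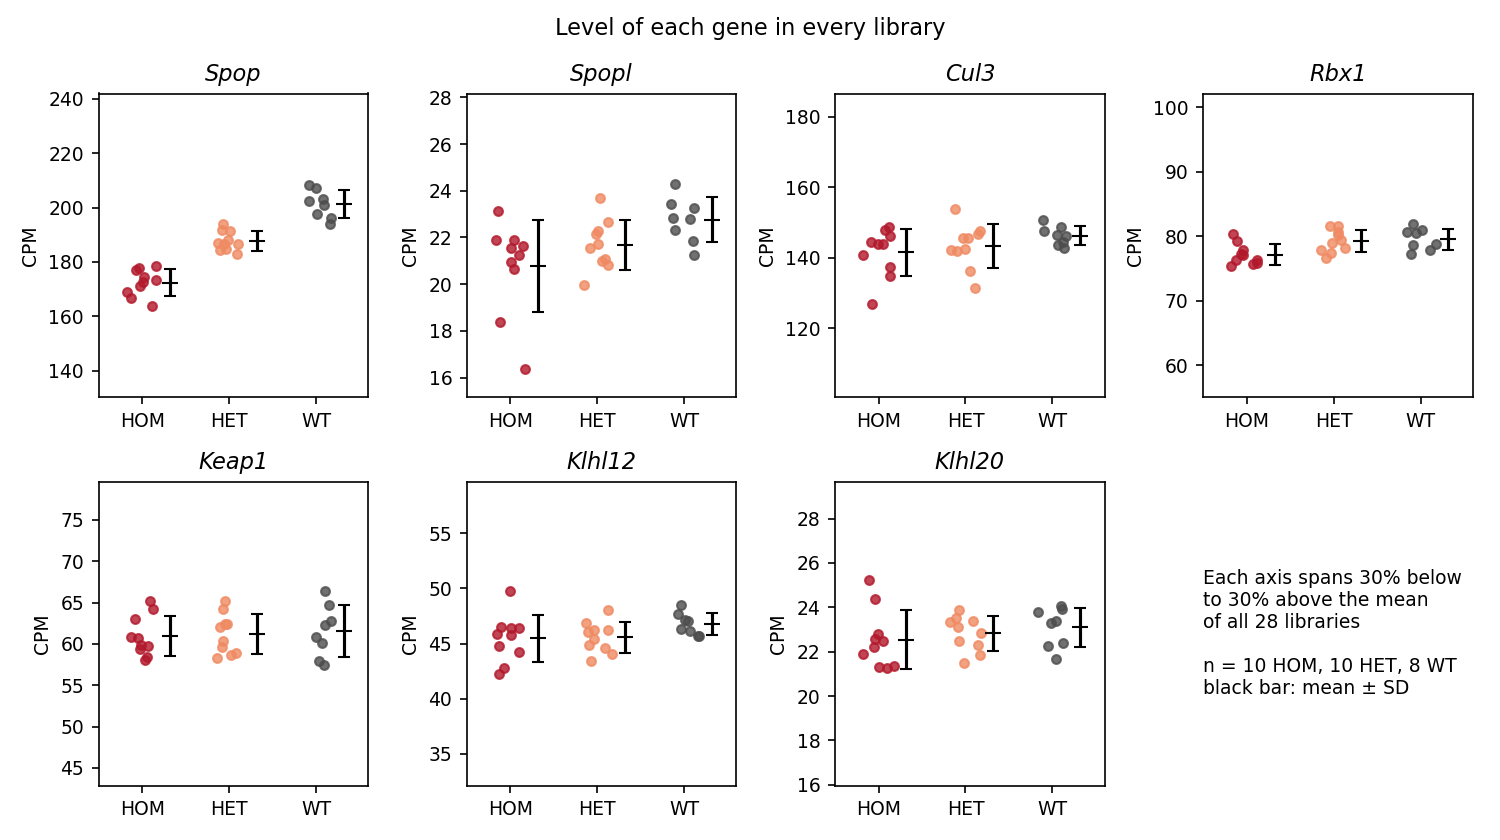
CPM of each of the 7 genes in every library (vertical axis, linear, from 30% below to 30% above the gene's mean), with HOM, HET and WT from left to right; bars mark the mean and error bars the SD over 10, 10 and 8 libraries. The Spop groups step upward from HOM (mean 172 CPM) over HET (188 CPM) to WT (201 CPM), while the groups of the other genes overlap.

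Spop averaged 172 ± 4.86 CPM in HOM, 188 ± 3.63 CPM in HET and 201 ± 5.10 CPM in WT (SD, n = 10, 10 and 8). On the log2 scale Spop differed by -0.22 in HOM over WT (SE 0.02, 95% interval -0.26 to -0.18 and a ratio of 0.857) and by -0.12 in HOM over HET (SE 0.02). In bulk tissue, fewer cells that express Spop and less Spop RNA per cell cannot be told apart.

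With 1 mutant allele Spop was lower by a smaller amount. HET over WT was -0.10 on the log2 scale (SE 0.02, 95% interval -0.14 to -0.06), a ratio of 0.933. Over all genes, edgeR called 0 in HET against WT (0%), with 1547 at an unadjusted p under 0.05, and DESeq2 called 12. This comparison shares its HET and WT libraries with the comparisons that led to the choice of Spop.

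The HET level of Spop differed from the midpoint of HOM and WT by 0.01 on the log2 scale (SE 0.02, 95% interval -0.02 to 0.05), again from the values used in the choice. The other 6 members lay -0.02 to 0.02 from their own midpoints, and edgeR called 0 of all genes off the midpoint (456 at an unadjusted p under 0.05, and 0 by DESeq2). The spread of Spop between libraries of a genotype was small: its biological coefficient of variation was 3.28%, with 0.403% of genes lower. This value comes from the counts used in the choice, and choosing a gene for separated groups favours a small spread.

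Spopl, on chromosome 2 (23506220 to 23572106, minus strand), encodes the closest relative of SPOP, which can pair with it in human cells. Its coding sequence matched that of Spop at 74.2% of 1122 aligned bases, with no identical stretch longer than 20 bases. In HOM, Spopl had a lowest value of 16.4, a median of 21.4 and a highest of 23.1 CPM. HET had 19.9, 21.6 and 23.7 CPM, and WT had 21.2, 22.8 and 24.3 CPM. The groups overlapped: 4 of 10 HOM libraries had less than any WT library, 2 of them, HOM 2 (16.4 CPM) and HOM 1 (18.4 CPM), also below every HET library. These 2 were the shallowest libraries of the study.

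The fold change of Spopl was -0.13 for HOM over WT on the log2 scale (SE 0.05, 95% interval -0.22 to -0.03, edgeR adjusted p = 0.0796). It was -0.07 without HOM 1 and HOM 2 (edgeR adjusted p = 0.174). HET over WT was -0.07 (edgeR adjusted p = 0.613). Spopl varied most among the members, with a biological coefficient of variation of 6.18%. Its exons share 448 bases with the pseudogene Gm13331 on the other strand, and since the strand setting of the counting is not given, part of its count is uncertain.

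Cul3, the scaffold, lies on chromosome 1 (80264923 to 80340480, minus strand). It had a lowest value of 127, a median of 144 and a highest of 149 CPM in HOM, against 131, 144 and 154 CPM in HET and 143, 146 and 151 CPM in WT. The groups overlapped, and 4 of 10 HOM libraries had less than any WT library. The means were 141 ± 6.76, 143 ± 6.22 and 146 ± 2.69 CPM in HOM, HET and WT (SD), and HOM over WT was -0.05 on the log2 scale (SE 0.03, 95% interval -0.11 to 0.01, edgeR adjusted p = 0.304).

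Rbx1, the RING subunit on chromosome 15 (81466316 to 81476369, plus strand), was the steadiest member, with a biological coefficient of variation of 3.05% (0.0869% of genes lower). It had a lowest value of 75.4, a median of 76.7 and a highest of 80.4 CPM in HOM, against 76.7, 79.2 and 81.6 CPM in HET and 77.2, 79.6 and 81.8 CPM in WT. Of the 10 HOM libraries, 7 had less Rbx1 than any WT library, but the highest lay above the WT median. That library was HOM 2, the shallowest of the study. HOM over WT was -0.04 on the log2 scale (SE 0.02, 95% interval -0.08 to -0.01) with an edgeR adjusted p of 0.15, and HOM over HET was -0.04 with an edgeR adjusted p of 0.565. A processed copy of the gene, Rbx1-ps, is annotated on chromosome 17, so reads may have been shared between them.

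Keap1, Klhl12 and Klhl20 are Kelch-type adaptors of the same scaffold. KEAP1 holds the antioxidant transcription factor NRF2 for degradation, KLHL12 modifies the COPII coat protein SEC31 and KLHL20 targets the kinase DAPK1 and the nuclear body protein PML in human cells. Keap1 averaged 60.9 ± 2.41 CPM in HOM, 61.2 ± 2.40 CPM in HET and 61.6 ± 3.11 CPM in WT (SD), and no HOM library lay outside the WT range of 57.5 to 66.4 CPM. Of its exon bases, 510 overlap the antisense gene Gm16754.

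Klhl12 averaged 45.5 ± 2.13 CPM in HOM, 45.6 ± 1.39 CPM in HET and 46.8 ± 1.01 CPM in WT (SD). Its HOM libraries spread more widely than its WT libraries, with 4 below the lowest and 1, the shallow HOM 2, above the highest. Klhl20 averaged 22.5 ± 1.33 CPM in HOM, 22.8 ± 0.770 CPM in HET and 23.1 ± 0.886 CPM in WT (SD), with 3 HOM libraries below and 2 above the WT range. The log2 fold changes of HOM over WT were -0.02, -0.04 and -0.04 for Keap1, Klhl12 and Klhl20 (SE 0.03 each), and the edgeR adjusted p-values were 0.80, 0.342 and 0.52.

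Of the 6 partners, edgeR called 0 in HOM against WT, beside 7.61% of all genes called in either direction (3.71% lower), and 0 in HOM against HET, beside 0.0372% (0.0248% lower). At an unadjusted p under 0.05 there were 2 of them in HOM against WT, Spopl and Rbx1, beside 24.6% of all genes, and 1 in HOM against HET, Rbx1, beside 8.54%. All 6 estimates were below 0 in HOM against WT and in HET against WT, comparisons that share the WT libraries. The share of all genes below 0 is not given here. In HET against WT the estimates of Rbx1 and Keap1 were only -0.005 and -0.008, and Keap1 kept its sign in 32 of 35 other settings. The median over the 7 members was -0.04 for HOM over WT and -0.03 for HET over WT, beside 0.01 and 0.00 over all genes tested. Both member medians include Spop, which was chosen for its lower level in these libraries. The intervals leave room for a fall of Cul3, Rbx1, Keap1, Klhl12 or Klhl20 by up to 0.11 on the log2 scale.

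**Figure D3:**
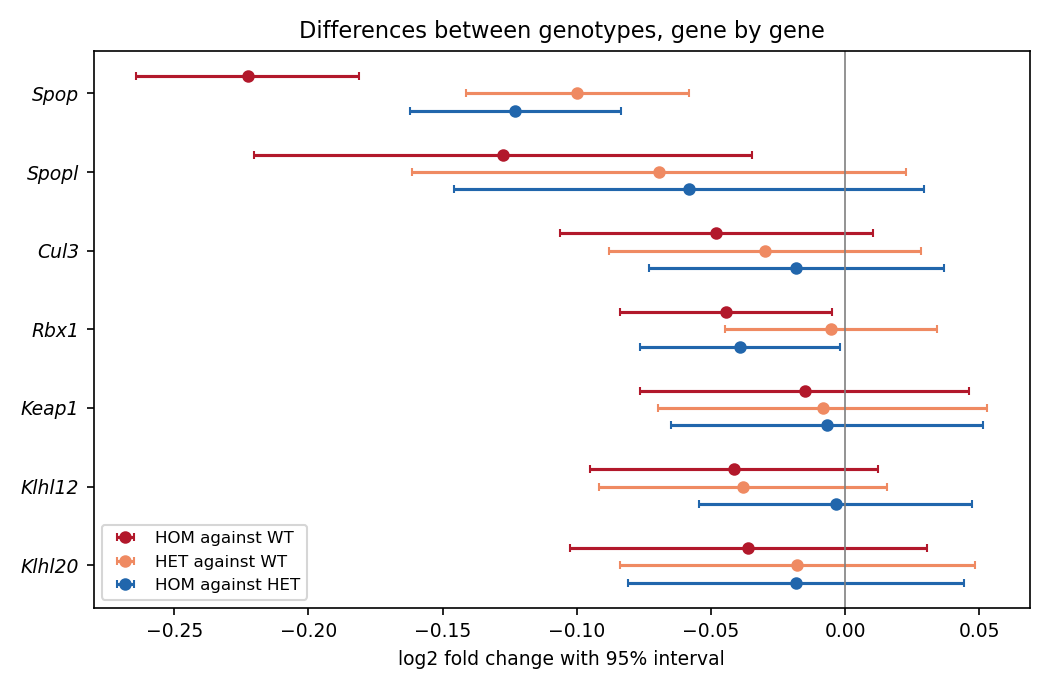
Log2 fold changes with 95% intervals for each of the 7 genes in HOM against WT, HET against WT and HOM against HET. Spop sits at -0.22, -0.10 and -0.12, and the other genes lie between -0.13 and 0. The Spop intervals take no account of its choice on these libraries.

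Measured against its partners within each library, Spop was lower in HOM than in WT. The geometric mean ratio of Spop to Rbx1 reads was 2.23 in HOM, 2.37 in HET and 2.53 in WT. On the log2 scale it ran from 1.11 to 1.23 in HOM, 1.21 to 1.31 in HET and 1.27 to 1.37 in WT, so HOM and WT did not overlap. The ratio to Cul3 was 1.22 in HOM, 1.31 in HET and 1.37 in WT, where the highest HOM library passed the lowest WT library by 0.01 on the log2 scale. Ratios to Keap1 (2.83 in HOM, 3.07 in HET and 3.27 in WT) and Klhl12 (3.79 in HOM, 4.12 in HET and 4.30 in WT) did not overlap between HOM and WT either. The ratio to Spopl did overlap, at 8.34 in HOM, 8.66 in HET and 8.85 in WT, with HOM 2 the highest of all libraries and HOM 1 the next within HOM. The ratio to Klhl20 was 7.65 in HOM, 8.23 in HET and 8.71 in WT, and the top HOM library passed the lowest WT library by 0.01 on the log2 scale. These ratios rest on the same Spop counts that chose the gene and were not tested. The CPM of Spop alone did not overlap between HOM and WT, so ratios that do not overlap show nothing particular to these partners. The share of all genes whose ratio with Spop does not overlap was not computed. The ratios do not depend on the scaling of the libraries.

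**Figure D4:**
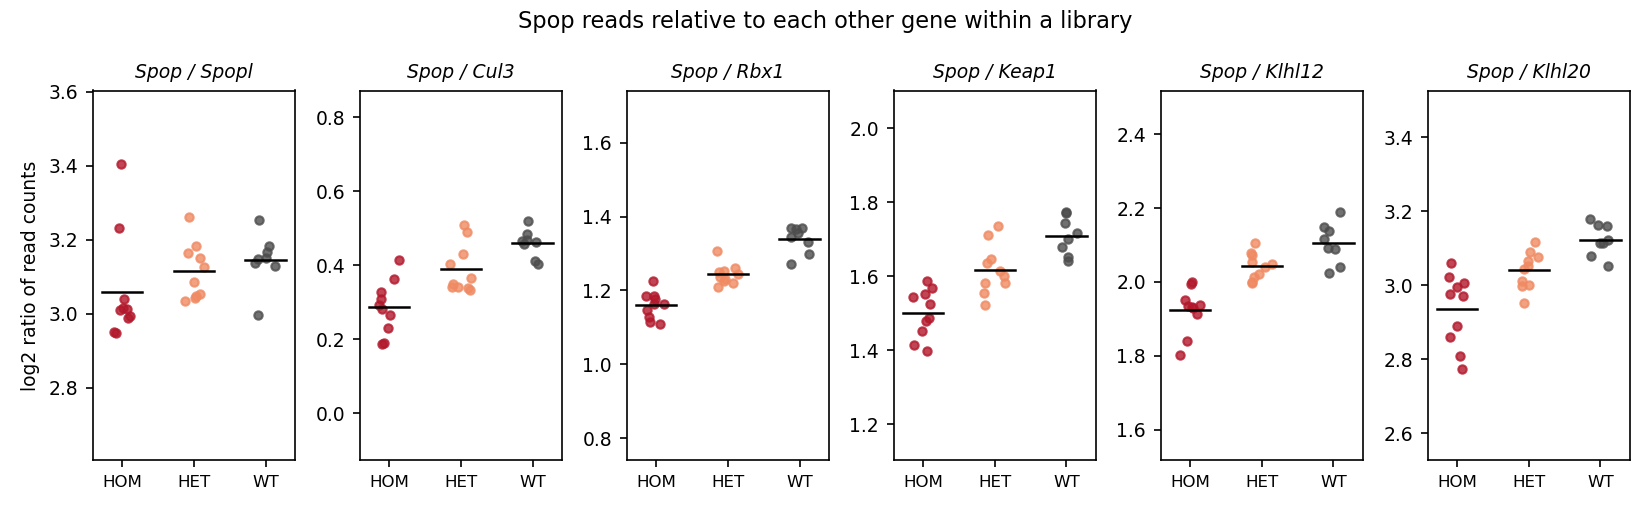
Log2 ratio of Spop to each of the other 6 genes in every library, with HOM, HET and WT from left to right. The HOM libraries lie below the WT libraries for Rbx1, Keap1 and Klhl12, as they do for the CPM of Spop alone. The 2 high HOM points in the Spopl panel are HOM 2 and HOM 1.

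Per length, Spop was the most abundant of the 7 genes. Over all 28 libraries, CPM per kb of the longest coding transcript averaged 60.8 ± 4.09 for Spop, 46.9 ± 1.16 for Rbx1, 30.5 ± 1.24 for Cul3, 16.9 ± 0.702 for Keap1, 13.5 ± 0.488 for Klhl12, 5.6 ± 0.251 for Klhl20 and 3.28 ± 0.242 for Spopl (SD). Every step in this order exceeded the spread between libraries. Per kb of all annotated exons, Spop remained first at 58.9, the 96.0th percentile of genes, but Cul3 (29.5) stood above Rbx1 (17.3) and Spopl (2.11) above Klhl20 (1.78), so those neighbours have no fixed order.

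Within genotypes the members moved together only in part. After each genotype's mean was taken out, the correlation of log2 CPM over the 28 libraries was 0.69 for Rbx1 and Klhl12, 0.52 for Spopl and Cul3, 0.51 for Spop and Rbx1, -0.50 for Cul3 and Keap1 and -0.49 for Spopl and Keap1. Spop and Cul3 had 0.21, and Spop and Spopl 0.09. Each pair of values comes from the same library and shares its depth. In HOM, the shallowest library, HOM 2, had the highest Rbx1, Klhl12 and Keap1 (80.4, 49.7 and 65.2 CPM) and the lowest Spopl (16.4 CPM). The correlations were not computed without it. Among 13922 genes averaging at least 1 CPM, Rbx1 ranked 82 in likeness to Spop by this measure, Klhl12 930, Keap1 1550, Cul3 2391, Klhl20 3467 and Spopl 4767.

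Over all 28 libraries, genotype differences included, the genes most like Spop were 4933439F18Rik (r = 0.93), Zrsr2 (0.90), C030039L03Rik (0.86), Sod2 (0.84) and Pigk (0.81), beside a median of 0.00 over the 13922 genes. All 5 were lower in HOM than in WT, by -0.44 to -0.15 on the log2 scale, a direction that their choice by likeness to Spop favours. With genotype means taken out the most alike were H2afy (0.71), Snrnp27 (0.69), Zfp809 (0.68), Gyg (0.63) and Mtap (0.62), and none of these 5 passed the edgeR test in HOM against WT. H2afy encodes the variant histone macroH2A, a reported SPOP substrate in human cells.

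None of the genes next to Spop passed the test in HOM against WT. The 3 nearest tested protein-coding genes on the lower-coordinate side, Myst2 (the histone acetyltransferase now named Kat7), Fam117a and Slc35b1, had log2 fold changes of 0.00, -0.02 and 0.05 in HOM over WT. On the other side Nxph3, at 16.4 kb the closest, Ngfr and Phb had 0.04, -0.04 and 0.03, and the edgeR adjusted p-values of the 6 ran from 0.315 to 0.978.

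Other parts of the ubiquitin pathway were then read in HOM against WT from lists drawn up by role. Of 44 other BTB-Kelch adaptors tested, with a median of -0.03, 4 (9.09%) fell and none rose, beside 3.71% and 3.9% of all genes. They were Klhl24, whose product turns over keratin in human skin (-0.11 on the log2 scale, edgeR adjusted p = 0.0207), Klhl11 (-0.14, edgeR adjusted p = 0.0291) and Klhl21, which acts in cell division in human cells (-0.21, edgeR adjusted p = 0.0327). The last was Kbtbd2, a regulator of insulin signalling in mice (-0.10, edgeR adjusted p = 0.0463). Klhl24 was called in 33 of 35 other settings, Klhl11 in 29, Klhl21 in 27 and Kbtbd2 in 13. Klhl11 and Klhl21 stayed called without HOM 1 and HOM 2, and of the 4 only Klhl11 without WT 6 and HOM 3. However, Klhl21 lost its call when only HOM 2 was left out, and Klhl11 when only WT 6 was left out. Of 33 other BTB adaptors tested, with a median of 0.03, 1 (3.03%) rose and none fell, beside 3.9% and 3.71% of all genes.

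Among 10 other cullins and RING partners, Cul1, the scaffold of the SCF ligases, fell by 0.09 on the log2 scale, with 118 ± 3.26 CPM in HOM and 125 ± 2.59 CPM in WT (SD, edgeR adjusted p = 0.0137, called in all 35 other settings). Of 14 genes of neddylation and cullin exchange and 9 of the COP9 signalosome, which switch cullins on and off through the modifier NEDD8, edgeR called none, with medians of -0.02 and 0.00. Of 9 enzymes that charge or pass on ubiquitin, Ube2d1 (-0.12, edgeR adjusted p = 0.0480) and Ube2d2 (-0.10, 0.0318) fell, with calls in 13 and 26 of 35 other settings, and neither was called without WT 6 and HOM 3 or without HOM 1 and HOM 2. These shares stand beside 3.9% of all genes higher and 3.71% lower.

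SPOP acts on its substrates as proteins, which were not measured, and only their RNA was read here. Among 26 reported SPOP substrates 2 fell and none rose, beside 3.71% and 3.9% of all genes, and the median was -0.03. The transcription factor Atf2 had 110 ± 3.35 CPM in HOM and 119 ± 2.31 CPM in WT (SD, -0.12 on the log2 scale, edgeR adjusted p = 0.00329), and the histone methyltransferase Setd2 had 75.6 ± 3.88 CPM in HOM and 82.3 ± 4.54 CPM in WT (SD, -0.12, edgeR adjusted p = 0.0223). Atf2 was called in all 35 other settings and Setd2 in 31, not without WT 6 (alone or with HOM 3), without HOM 1 and HOM 2, or under the replicate block. Of 11 substrates and co-adaptors of KLHL12 and KLHL20, edgeR called none.

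NRF2 and its targets, the genes that KEAP1 restrains, had 2 of 24 genes higher, beside 3.9% of all genes, and none lower. Their median was 0.07, and it was 0.04 without WT 6 and HOM 3; under the replicate block edgeR called none of the 24. Ftl1, the ferritin light chain, rose by 0.10 on the log2 scale (209 ± 11.4 CPM in HOM and 195 ± 8.48 CPM in WT, SD, edgeR adjusted p = 0.0469), a call that held in 5 of 35 other settings. Osgin1, an oxidative stress response gene near the detection limit, rose by 0.54 (0.566 ± 0.0489 CPM in HOM and 0.388 ± 0.0856 CPM in WT, SD, edgeR adjusted p = 0.0340), a call that held in 25 of 35. In HET against WT, where edgeR called 0 of all genes, the lists held no call either.

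**Figure D5:**
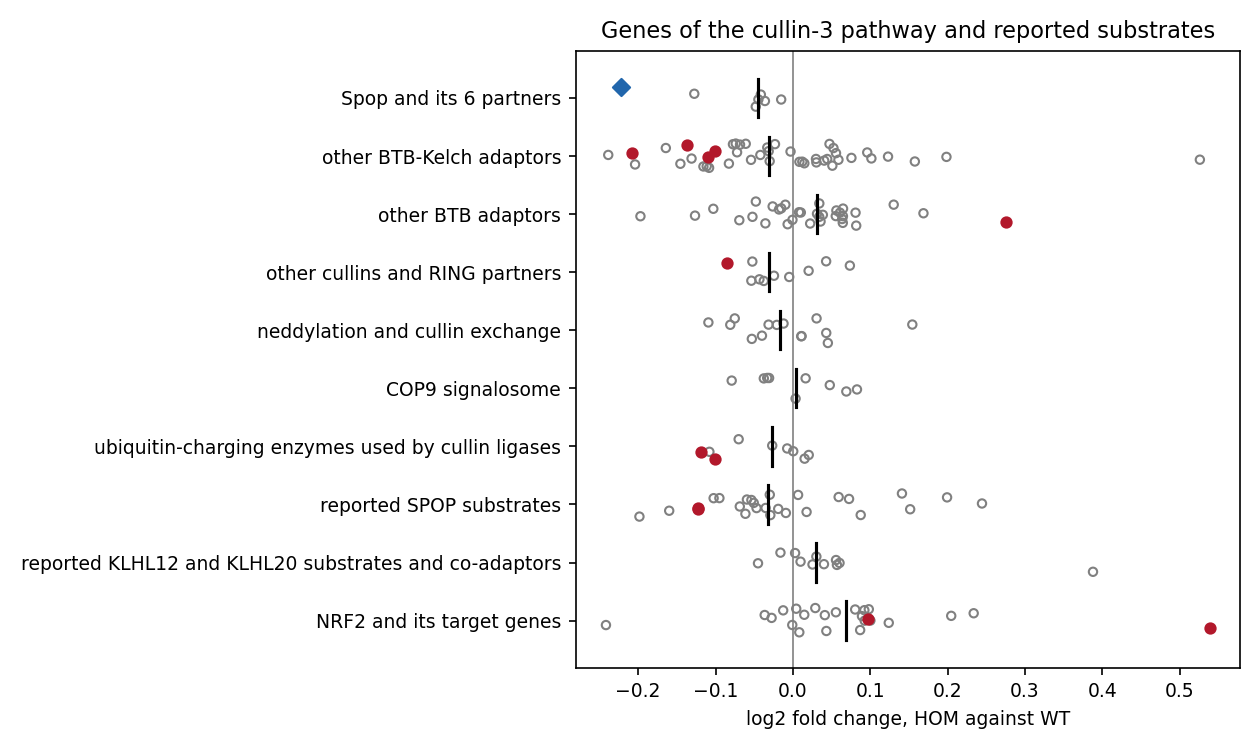
Log2 fold change of HOM over WT for every tested gene of each list (points), with the list's median as a bar. Filled points passed the edgeR test, the 2 of the SPOP substrates lying at the same -0.12; the diamond is Spop, which was chosen for this difference and is not tested here.

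Markers of cell classes were read in the same libraries. The 8 excitatory neuron markers summed to 6022 to 7210 CPM in HOM, 6355 to 7030 CPM in HET and 6145 to 6691 CPM in WT. None of the 8 passed the edgeR test in HOM against WT. In HOM the 10 oligodendrocyte markers summed to 3700 to 7047 CPM and the 10 astrocyte markers to 4872 to 5689 CPM. The 8 inhibitory neuron markers summed to 914 to 1080 CPM. Such sums depend on which genes are listed. Of 12 microglial markers 8 rose in HOM (summed 525 to 665 CPM in HOM, 478 to 561 CPM in HET and 472 to 552 CPM in WT), as did 5 of 8 of oligodendrocyte precursors, 5 of 12 of vessel cells, 3 of 10 of astrocytes and 2 of 8 of meningeal fibroblasts, beside 3.9% of all genes higher and 3.71% lower. Of 8 inhibitory neuron markers 2 rose and 2 fell, and none of the oligodendrocyte, striatal or choroid plexus lists was called. Without WT 6 and HOM 3 the calls numbered 6 microglial, 2 precursor, 1 vessel and 0 meningeal markers, while the list medians were 0.17, 0.19, 0.16 and 0.26 on the log2 scale, beside 0.19, 0.21, 0.17 and 0.53 with all libraries. The part of these differences in the Spop values was not tested.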

How the data were processed

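The authors deposited 1 table of read counts per gene, whole numbers without normalisation. The submitters' processing notes name Trim Galore 0.4.3, HISAT2 2.0.5 and the build GRCm38, and per the labels' protocols the mRNA kit was stranded. How reads were counted (tool, strand, annotation) is not given in the sources used here. Rows were summed for the 57 identifiers that filled several of the 25965 rows. No 2 libraries agreed within sampling noise (lowest chi-square per degree of freedom 6.39 over 378 pairs). Genes were filtered with filterByExpr, scaled by TMM and tested in edgeR 4.0.16 (R 4.3.3; glmQLFit, robust, two-sided) in a single model of the 28 libraries with genotype as the only factor, and Benjamini-Hochberg adjustment over 16110 genes and a threshold of 0.05. Calls are adjusted p-values under it. DESeq2 1.42.0, its size factors, no count filter, fits of the compared groups, a replicate block and libraries left out were the alternatives. The members, gene lists and settings were chosen with earlier results of these data known. Named genes were the members, up to 3 called genes a direction per list by smallest p, the 5 genes most like Spop by each correlation, and its 3 tested neighbours on each side; Kbtbd2, the 4th lower gene of its list, was named after its value was seen. Positions and transcripts are those of GENCODE vM21. Total counts of 30.5 to 74.9 M and a biological coefficient of variation of 8.46% set the precision. A called gene that the naming rule takes from the other BTB adaptors is not reported here.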

Additional observations from a re-analysis of the deposited data

How the results depend on the processing

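In the 35 other settings the log2 fold changes of Spop ran from -0.23 to -0.22 in HOM against WT and from -0.13 to -0.12 in HOM against HET. Spop was chosen for its lower level in these libraries, so its kept sign was set by that choice and adds no support. In HET against WT its values ran from -0.11 to -0.09. No partner gained a call in HOM against WT; the adjusted p of Spopl ran from 0.0501 to 0.174. Genes called in HOM against WT numbered 1226, against 737 with the replicate block, 509 without WT 6 and HOM 3, and 595 (without WT 6) to 1345 with 1 library left out. In HET against WT there were 0, against 12 by DESeq2, 4 in a fit of these 2 groups, 2 without HOM 1 and HOM 2, and 0 to 3 with 1 library left out. In HOM against HET there were 6, against 48 by DESeq2 and 3 to 15 with 1 library left out. The cause of these differences was not tested. Leaving out 1 library also means fewer samples, yet it moved the count of HOM against WT in both directions. Replicate numbers were taken to pair no libraries: of 26 same-numbered pairs, 5 had residual correlations over 0.1 (range -0.164 to 0.183). With the replicate block Spop was -0.22 in HOM against WT.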

Other observations

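Long TG runs were not peculiar to Spop among all genes. Leaving out Spop, 566 other genes had an alternating run of at least 24 bases in their longest coding transcript, and 43 of them (7.60%) were lower and 19 (3.36%) higher in HOM than in WT by edgeR, beside 3.78% lower and 4.07% higher of the 14879 genes with a transcript. These transcripts were longer, with a median of 5.03 kb against 3.18 kb, and the median fold change of both sets was within 0.01 of 0 on the log2 scale. Of the 14 other genes at least as dense in TG hexamers as Spop, 1 was lower and 0 higher. The set was formed after the sequence of Spop was seen, and no test was made of it.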
